A study of Homo sapiens with 6 samples.

Results

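The keratin genes on the array were taken as every probe whose gene name is KRT followed by a number and, where present, a letter A to C, with the keratin-associated KRTAP names left out. This gave 65 probes for 55 genes, of 47230 probes and 31334 gene names in all. All samples came from the human embryonic stem cell line H1 at passage 32, kept without feeder cells. One group received a pSUPER plasmid whose short hairpin RNA (shRNA) targets HERVH, a family of human endogenous retroviruses transcribed in these cells, and the control group the same kind of plasmid targeting luciferase, so all 6 samples had been transfected. On day 5 after transfection the RNA of 3 samples in each of the 2 groups was measured on Illumina arrays with 1 colour. The comparison asks how transcript levels differ after transient HERVH shRNA in 1 cell line, and the labels do not say whether the replicates were separate cultures, so p-values measure only the spread between these samples.

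Keratins are the intermediate filament proteins of epithelial cells. They work as obligate pairs of an acidic type I and a basic type II protein, and in the human genome the type I genes lie in a cluster on chromosome 17 and the type II genes in a cluster on chromosome 12, with the type I gene KRT18 placed beside its partner KRT8 in the latter. KRT8, KRT18 and KRT19 form the filaments of simple, single-layered epithelia and are also made by early embryonic cells, KRT5 and KRT14 mark the basal layer of stratified epithelia, KRT1 and KRT10 mark its upper layers, and the hair and root sheath keratins build the hair follicle.

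The columns of the 6 samples held linear probe intensities with medians of 71.2 to 73.8. Over all probes, log2 intensities correlated at 0.994 to 0.995 within a group and at 0.968 to 0.972 between groups. No gene name on the array contained HERVH (0 probes), so depletion of the shRNA target could not be read. The labelled cell type was checked on a list of markers of undifferentiated pluripotent cells, and 12 of 12 were above the level of dim probes defined below in the mean of the 6 samples. In HERVH shRNA samples 7 of these 12 fell and 2 rose. POU5F1, the core pluripotency factor, fell on 1 of 2 probes, from 2926 ± 248 to 1389 ± 34.8 (SD, n = 3 each) on the brighter. NANOG and SOX2, its partners in that network, fell by 0.40 and 0.43 on the log2 scale, NANOG on 1 of 2 probes and SOX2 on both, with a log2 fold change of -2.10 on its other probe. Over the whole array, limma's moderated test called 25.5% of all probes at an adjusted p under 0.05, so a call on a keratin probe has to be read against that background.

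Few keratin probes were bright in these cells. As a guide to dim probes, the 446 probes of olfactory receptor genes, a family largely silent outside olfactory neurons, were used: 8 of the 65 keratin probes had a mean normalised log2 intensity above the 95th percentile of those probes (6.43), and 57 did not. The 8 probes belonged to KRT8, KRT19, KRT10, KRT17, KRT18 (2 probes), KRT80 and KRT75. The detection p-values in the deposited files were not used here, so a dim probe is not shown to be absent, and brightness also depends on the probe, so intensities are not compared between genes. A change on a dim probe is understated because most of its signal is background.

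Between HERVH shRNA and control shRNA, 10 of the 65 keratin probes (9 of 55 genes) passed the test, 7 higher against a background of 12.5% of all probes higher, and 3 lower against a background of 13% lower. The share called was 15.4%, beside 25.5% of all probes, but calls depend on brightness and most keratin probes were dim. Below the olfactory receptor level, 3 of 57 keratin probes (5.26%) were called, beside 4.45% of all probes below it. Above it, 53.0% of all probes were called, and of the 8 keratin probes the KRT10 probe alone was not. The level is a mean over both groups, so a probe can pass it through the group where it is high. Of the 8, only the probes of KRT8, KRT19, KRT10 and KRT17 were above the 95th percentile in each of the 6 samples. This count is therefore not weighed against the 53.0%. The median log2 fold change of the 65 probes was 0.02 against 0.00 for all probes. Intensities of the groups did not overlap on 19 of the 65 keratin probes, beside 17277 of all 47230 probes. Among dim probes this held for 12 of 57 keratin probes, beside 4602 of all 26765. Of all 20465 probes above the olfactory receptor level, 12675 did not overlap, so a lack of overlap is common on this array. By class, the calls were 5 of 7 probes of simple epithelial keratins, 2 of 23 probes of stratified keratins, 1 of 5 of other epithelial keratins, 1 of 10 of root sheath and companion layer keratins, and 1 of 19 of hair keratins. The classes also differ in brightness, with 4 of 7 simple, 2 of 23 stratified and 0 of 19 hair keratin probes above the olfactory receptor level, and the part of brightness in these counts was not tested. KRT222, whose name falls in no class, was not called. By chromosome, 7 of 31 probes were called on chromosome 12 and 3 of 34 on chromosome 17.

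**Figure D1:**
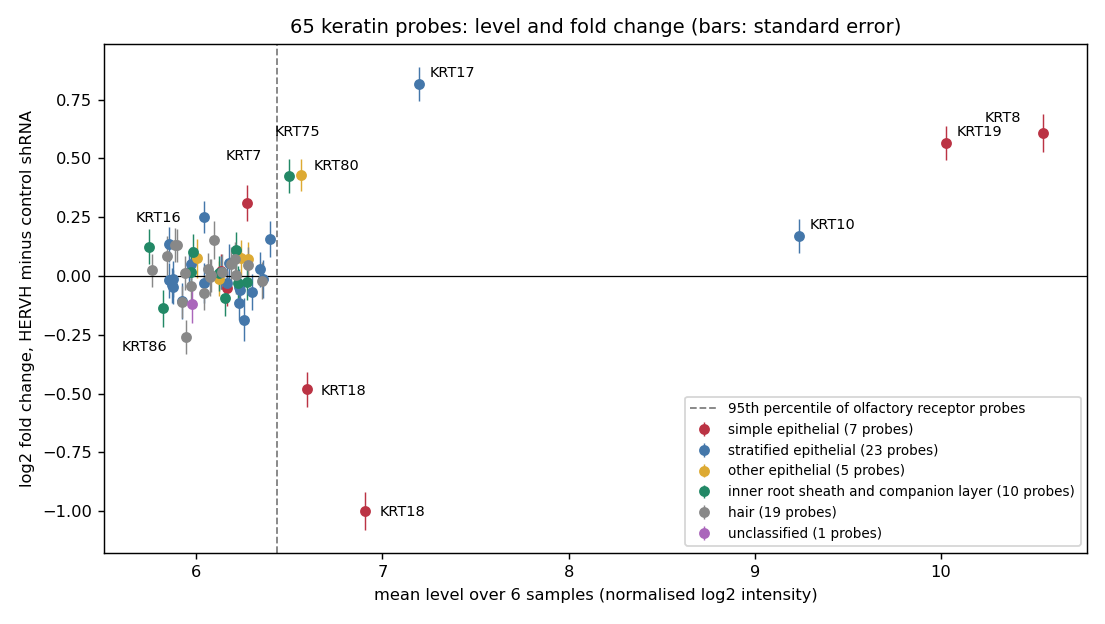
Each point is 1 of the 65 keratin probes, with its mean normalised log2 intensity over 6 samples (x axis) and its log2 fold change, HERVH shRNA minus control shRNA, with its standard error (y axis), coloured by keratin class. KRT8, KRT19 and KRT17 lie above 0 and the 2 KRT18 probes below it, at log2 changes of -0.999 and -0.48, while most probes left of the dashed olfactory receptor line lie near 0.

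KRT8, the type II keratin of simple epithelia, rose. Its probe read 1359.7, 1172 and 1134 in the 3 control samples and 1676, 1853 and 1946 in the 3 HERVH shRNA samples. Every HERVH shRNA sample was above every control sample. The mean went from 1222 ± 121 to 1825 ± 137 (SD, n = 3 each), a ratio of 1.49, and the log2 fold change on normalised values was 0.61 ± 0.08 (SE, limma adjusted p = 1.1e-06). These are bulk samples, in which more or fewer cells of a type and more or less RNA per cell cannot be told apart. An exact two-sided permutation test on this probe alone gives p = 0.1, the smallest that 3 samples against 3 allow.

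KRT19, a type I keratin of simple and ductal epithelia that can also pair with KRT8, rose by a similar ratio. Its intensities were 904.99, 819 and 853 in control samples and 1217, 1227 and 1279 in HERVH shRNA samples, with no overlap. The means were 859 ± 43.4 and 1241 ± 33.3 (SD, n = 3 each), a ratio of 1.44, with a log2 fold change of 0.56 ± 0.07 (SE, limma adjusted p = 5.6e-07).

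KRT18, the usual type I partner of KRT8, fell on both of its probes. The first read 158.97, 144 and 184 in control samples and 73.96, 74.9 and 79.5 in HERVH shRNA samples. The second read 95.2, 107 and 111 in control samples and 69.2, 72.8 and 77.3 in HERVH shRNA samples. Neither probe showed an overlap between the groups. The log2 fold changes were -0.999 ± 0.08 and -0.48 ± 0.07 (SE, limma adjusted p = 1.7e-10 and 1.1e-05). The HERVH shRNA values of both probes lie below the 95th percentile of olfactory receptor probes in those samples (78.7 to 81.9), so the size of the fall is bounded by the background. KRT8 and KRT18 moved in opposite directions although they are partners and neighbours, and in the RefSeq gene table (GRCh38.p14) their annotated extents overlap.

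Both genes have many processed copies in the genome, 52 named KRT8P and 68 named KRT18P in that gene table, and some have probes of their own. Whether KRT8 and KRT18 probes also bind copies, or copy probes bind the parent transcripts, was not tested, because probe sequences were not used here. Of 25 probes named for 18 KRT18 copies, 3 were called (12%), 2 lower and 1 higher, beside 25.5% of all probes. All 3 were among the 6 above the olfactory receptor level, where 53.0% of all probes were called. A probe for KRT18P31 read 6892 ± 500 in control samples and 3970 ± 130 in HERVH shRNA samples (SD, n = 3 each), with a log2 fold change of -0.70 ± 0.08 (SE, limma adjusted p = 5.3e-08). A bright probe for KRT18P13 differed by -0.14 ± 0.07 on the log2 scale and was not called (limma adjusted p = 0.23), and a probe for KRT18P28 rose by 0.48. A probe for KRT18P48 had a log2 fold change of -0.28 (limma adjusted p = 0.0025). Probes for KRT18P59 and KRT18P17 gave 0.08 and 0.14 and were not called. The second probes of KRT18P13 and KRT18P17 were dim and not called. Of 9 probes for 6 KRT8 copies, 4 were called (44.4%), 3 higher and 1 lower. These were the 4 above the olfactory receptor level, and the 5 others were not called. One of the probes of KRT8P47 went from 2245 ± 46.1 to 2669 ± 123 and one of KRT8P45 from 451 ± 59.1 to 781 ± 73.8, the same direction as KRT8, while one of KRT8P44 went from 129.6 ± 6.46 to 67.1 ± 11.8 (SD, n = 3 each). The second probe of each of these 3 copies was dim and not called. A probe for KRT8P9 rose by 0.27 on the log2 scale (limma adjusted p = 0.0042). Some of these names were reached through the Entrez number in a LOC name.

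**Figure D2:**
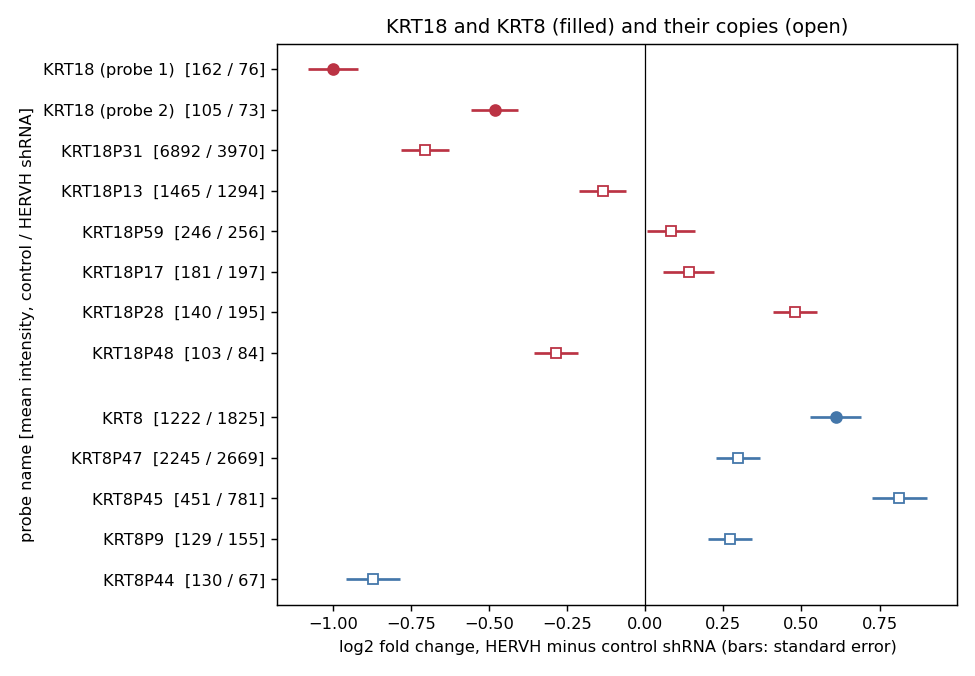
Log2 fold change, HERVH shRNA minus control shRNA, with its standard error (x axis), of KRT18 and KRT8 probes (filled circles) and of their copies' probes above the olfactory receptor level (open squares), with the mean intensity of each group beside each name (control first). The KRT18 probes, KRT18P31, KRT18P48 and KRT18P13, the last not called, lie below 0. KRT8, KRT8P47, KRT8P45 and KRT8P9 lie above it. The called probes of KRT18P28 and KRT8P44 lie on the side opposite to their parent gene, as do KRT18P59 and KRT18P17, at 0.08 and 0.14, which were not called.

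The other simple keratins were dim. KRT7, a type II keratin of glandular and trophoblast epithelium, read 58.5, 53.02 and 63.5 in control samples and 76.7, 71.6 and 83.8 in HERVH shRNA samples. The groups did not overlap, and its log2 fold change was 0.31 ± 0.08 (SE, limma adjusted p = 0.0025), yet 2 of the 3 higher values stayed below the olfactory receptor level of their samples. KRT20, a type I keratin of intestinal epithelium, had 2 probes with overlapping groups between 55.6 and 68.01 in all 6 samples. They gave log2 differences of -0.05 (95% interval -0.20 to 0.10) and 0.02 (95% interval -0.13 to 0.17), and neither was called.

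**Figure D3:**
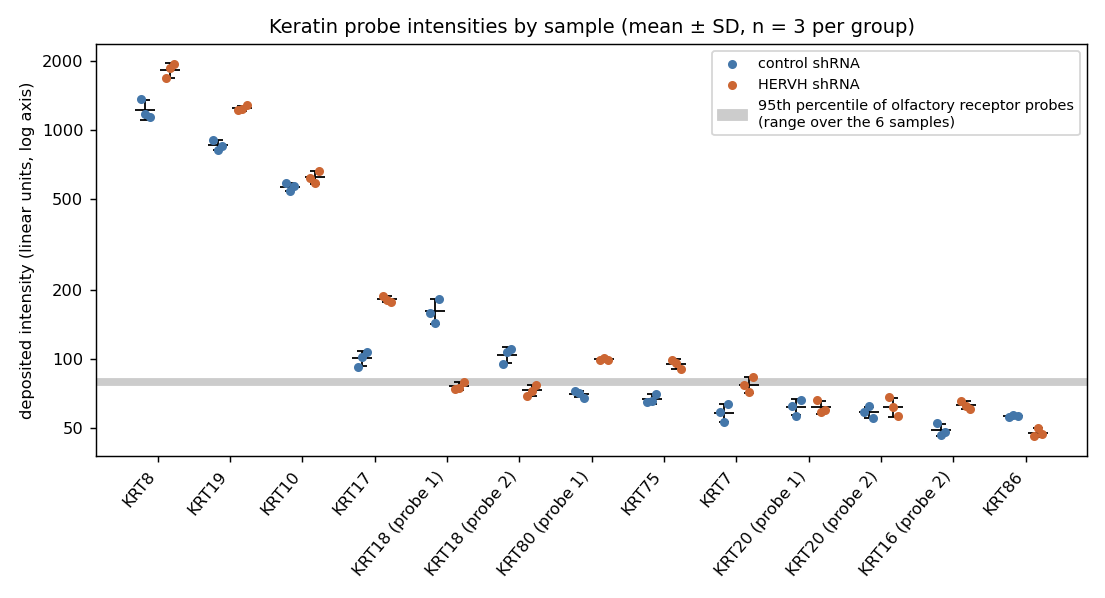
Deposited intensity (log axis) of each of the 6 samples for 13 keratin probes, control shRNA in blue and HERVH shRNA in orange, with group means and SD (n = 3), and the range over samples of the 95th percentile of olfactory receptor probes as a grey band. The 13 are those of simple keratins, those called and those above the olfactory receptor level. The uncalled probes of KRT16 and KRT80 are not shown. KRT8, KRT19 and KRT17 are higher in every HERVH shRNA sample, both KRT18 probes are lower, and KRT10 and KRT20 overlap.

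Promoter sequences of 34 of the 55 keratin genes are in the RefSeq table used here (38 windows, GRCh38.p14). The 250 bases before the annotated start are shown for KRT8 and KRT75, which rose, and for KRT10, which was bright and not called. KRT18, KRT19, KRT17, KRT80 and KRT7, which were also called, have no window in that table. These windows differ in exact matches to TATAAA and GGGCGG, and a link between such matches and the response to the shRNA was not tested. Near matches were not searched, and use of these starts in the cells was not tested. TATAAA and GGGCGG are in capitals wherever they or their reverse complements occur. The KRT8 window, chr12:52926470-52926719 on the minus strand, is the only one in the table for this gene, although RefSeq lists 4 transcripts of KRT8. The KRT75 window is chr12:52434372-52434621 and the KRT10 window chr17:40822615-40822864, both on the minus strand.
KRT8: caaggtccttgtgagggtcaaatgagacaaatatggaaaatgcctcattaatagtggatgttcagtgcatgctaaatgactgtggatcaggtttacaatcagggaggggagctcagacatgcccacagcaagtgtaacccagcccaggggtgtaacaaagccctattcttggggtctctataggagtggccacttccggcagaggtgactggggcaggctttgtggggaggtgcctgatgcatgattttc
KRT75: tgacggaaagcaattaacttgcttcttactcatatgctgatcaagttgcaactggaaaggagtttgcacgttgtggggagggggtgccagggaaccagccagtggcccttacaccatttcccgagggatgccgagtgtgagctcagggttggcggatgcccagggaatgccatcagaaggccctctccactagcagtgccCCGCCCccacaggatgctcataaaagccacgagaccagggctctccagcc
KRT10: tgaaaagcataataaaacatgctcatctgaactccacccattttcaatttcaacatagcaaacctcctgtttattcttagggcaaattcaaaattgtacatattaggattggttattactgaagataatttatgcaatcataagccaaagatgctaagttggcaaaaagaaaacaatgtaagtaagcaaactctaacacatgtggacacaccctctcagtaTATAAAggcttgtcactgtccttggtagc

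KRT10 has a TATAAA that begins 29 bases before the start, KRT75 has a match to the GC box GGGCGG on the other strand, 50 bases before the start, and the KRT8 window has neither. Searching both strands, 55.3% of the keratin windows (21 of 38) held TATAAA, against 10.7% of all 35116 windows of the same length. GGGCGG was in 10.5% of keratin windows (4 of 38) and 42.6% of all windows, and the E-box CANNTG in 78.9% and 61.8%. The AP-1 motif TGANTCA was in 0 of 38 keratin windows and 6.57% of all windows. Windows of keratins in 1 cluster share ancestry, and a match is only a description of these letters.

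Among stratified keratins, KRT17, a type I keratin of basal and injured or activated epithelium, rose most of all keratin probes on the log2 scale. It read 92.4, 103 and 107 in control samples and 189, 181 and 178 in HERVH shRNA samples, without overlap. The means were 101 ± 7.63 and 183 ± 5.45 (SD, n = 3 each), a ratio of 1.81, and the log2 fold change was 0.82 ± 0.07 (SE, limma adjusted p = 1.3e-09). Probes for 2 KRT17 copies, KRT17P3 and KRT17P5, were dim and none of 4 was called.

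KRT10, the type I keratin of the suprabasal epidermis, was bright in both groups. Its values were 587, 542 and 567 in control samples and 613, 585 and 664 in HERVH shRNA samples, which overlapped. The log2 difference was 0.17 (95% interval 0.02 to 0.32), and the probe was not called (limma adjusted p = 0.0998). KRT1, its type II partner, was dim, and its probe was not called.

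KRT16, the stress-induced type I partner of the KRT6 proteins, had 2 dim probes that differed. The dimmer one read 52.5, 46.7 and 48.1 in control samples and 65.8, 62.6 and 60.6 in HERVH shRNA samples, with no overlap and a log2 fold change of 0.25 ± 0.07 (SE, limma adjusted p = 0.0067). The other gave -0.19 and was not called, and with both probes averaged the gene was not called either (log2 difference 0.03, limma adjusted p = 0.80). The remaining 19 probes of stratified keratins, among them KRT5 and KRT14 of the basal layer, KRT1, KRT4, KRT13, KRT15 and the KRT6 genes, were dim and not called.

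Of the other epithelial keratins, KRT80, a widely distributed type II keratin, rose on 1 of its 2 probes. That probe read 72.3, 71.4 and 67.8 in control samples and 99.6, 101 and 98.8 in HERVH shRNA samples, with no overlap and a log2 fold change of 0.43 ± 0.07 (SE, limma adjusted p = 1.7e-05). Its second probe was dim and was not called (log2 difference 0.07), and with both averaged the gene gave 0.25 (limma adjusted p = 0.0088). Neither KRT23 nor KRT24 had a called probe.

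In the hair follicle classes, KRT75, a type II keratin of the companion layer of the hair follicle, rose. It read 64.9, 65.7 and 70.8 in control samples and 99.5, 96.03 and 90.1 in HERVH shRNA samples. The groups did not overlap, and the log2 fold change was 0.43 ± 0.07 (SE, limma adjusted p = 3.4e-05). Control values of KRT80 and KRT75 lie below the olfactory receptor level of those samples (77.1 to 77.5), and their HERVH shRNA values above it. KRT86, a type II hair keratin, fell from 55.8, 57.1 and 56.5 to 46.1, 50.2 and 47.1, below the median olfactory receptor intensity of the same samples, with a log2 fold change of -0.26 ± 0.07 (SE, limma adjusted p = 0.0069). A probe under the older name KRTHB6, which the gene table gives as KRT86, read 61.9 ± 6.42 and 62.5 ± 0.313 (SD, n = 3 each) and was not called. The other 18 hair keratin probes and 9 root sheath and companion layer probes were not called, with log2 differences from -0.14 to 0.15.

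Keratin filaments are anchored at desmosomes and hemidesmosomes, so genes of those junctions were described beside them, each gene by its brightest probe. By that rule 29.2% of 30845 genes were called, 15.5% higher and 13.7% lower, with a median log2 fold change of 0.01. The lists also differ in brightness. Above the olfactory receptor level, where 53.0% of all probes were called, were 13 of 20 desmosome and keratin linker genes. So were 5 of 8 hemidesmosome genes and 12 of 16 genes of other intermediate filaments. The part of brightness in the counts of calls was not tested. Of the 20 desmosome and keratin linker genes, 10 rose and 0 fell, with a median of 0.21. FAM83H, a protein that organises keratin filaments, went from 500.5 ± 8.49 to 989 ± 42.9, and PPL, the linker periplakin, from 199 ± 7.19 to 361 ± 29.8 (SD, n = 3 each). PERP, a desmosomal membrane protein, rose by 0.68 on the log2 scale and PLEC, the cytoskeletal linker plectin, by 0.64, though only 2 of the 8 PLEC probes were called.

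Of 8 hemidesmosome genes, 5 rose and 0 fell, with a median of 0.33. COL17A1, a transmembrane collagen of hemidesmosomes, went from 114 ± 3.11 to 506 ± 22.01 (SD, n = 3 each), with a log2 fold change of 2.08 (limma adjusted p = 1.3e-17). ITGB4, the integrin chain that defines hemidesmosomes, was dim and not called. The 10 cornified envelope genes, products of late epidermal differentiation such as IVL and FLG, had 0 calls by limma, and 3 of them, SPRR1A, TGM3 and SPRR1B, were above the olfactory receptor level with log2 differences of 0.04, 0.07 and -0.03.

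Of 16 genes of other intermediate filaments, 8 rose and 2 fell, with a median of 0.15. VIM, the mesenchymal filament protein vimentin, went from 3370 ± 99.3 to 8457 ± 183 and NES, the progenitor filament nestin, from 1214 ± 53.7 to 3080 ± 149 (SD, n = 3 each). INA, a neuronal filament protein, rose by 1.44 on the log2 scale, while LMNB1, a nuclear lamin, fell by 0.97.

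Transcription factors of epithelial fate went both ways, with 4 of 14 higher and 2 lower. TFAP2A and TFAP2C, AP-2 factors of surface ectoderm and trophoblast, went from 68.8 ± 2.93 to 205 ± 1.51 and from 354 ± 8.39 to 934 ± 30.95 (SD, n = 3 each). Of the TFAP2A probes 2 of 5 were called, and of the TFAP2C probes 2 of 2. OVOL2 and GRHL2, which maintain epithelial identity, went from 623 ± 19.04 to 185 ± 12.3 and from 171 ± 5.96 to 102 ± 5.18 (SD, n = 3 each). TP63, the master factor of stratified epithelium, was dim on its brightest probe and not called.

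**Figure D4:**
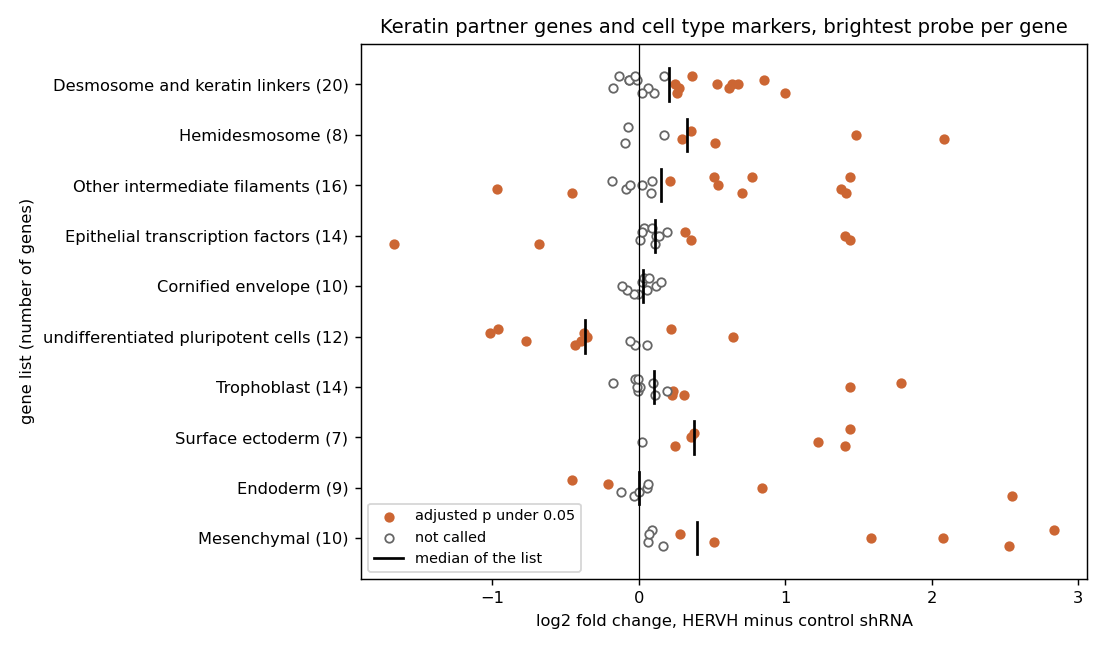
Log2 fold change, HERVH shRNA minus control shRNA, of each gene's brightest probe (x axis) in 5 lists of keratin partner genes and 5 lists of cell type markers, with the number of genes in brackets. Orange points passed the test, open points did not, and the black bar is the list's median. Called genes of both junction lists lie above 0, no cornified envelope gene was called, and most called pluripotency markers lie below 0.

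Some markers of other cell types also differed between the groups, and their part in the keratin changes was not tested. Of 10 mesenchymal markers 6 rose and 0 fell, and their summed intensity was 13319 to 13421 in control and 30879 to 33732 in HERVH shRNA samples. The genes that carry most of such a sum are named after their values were seen: here TAGLN, a smooth muscle actin-binding protein, which went from 6959 ± 159.95 to 20033 ± 1229 (SD, n = 3 each). COL3A1, LUM and DCN were not above the olfactory receptor level. Surface ectoderm markers rose in 6 of 7 cases, with sums of 742 to 759.7 and 1599 to 1653, mostly TFAP2C, and MSX2 and TP63 were not above that level. The trophoblast list, which includes KRT7, rose in 5 of 14 genes, with sums of 954 to 982 and 1342 to 1358, mostly HAND1 and TFAP2A, while CGA, CGB5, INSL4, CDX2, GATA2, KRT7 and ERVW-1 were not above it. These lists share genes and are not separate observations. TFAP2A is in the trophoblast, surface ectoderm and epithelial transcription factor lists. The last of these also shares TFAP2C, GRHL3 and TP63 with surface ectoderm, and GATA3 and CDX2 with trophoblast. Endoderm markers rose in 2 of 9 and fell in 2, with sums of 718 to 752 and 1579.9985 to 1645. Nearly all of that difference was AFP, the fetal liver and yolk sac protein alpha-fetoprotein, which went from 169.7 ± 1.89 to 1021 ± 52.2 (SD, n = 3 each), while EOMES and FOXA2 fell and TTR and GATA6 were not called. The other that rose was CXCR4, from 52.8 ± 3.41 to 104 ± 10.4 (SD, n = 3 each). CXCR4 and FOXA2 were each called on 1 of 3 probes. In this list 6 of the 9, SOX17, GATA4, GATA6, FOXA2, CXCR4 and APOA1, were not above that level in the mean of the 6 samples. The HERVH shRNA values of CXCR4 alone, 95.4 to 115.7, were above the olfactory receptor level of those samples (78.7 to 81.9). The pluripotency markers summed to 50891 to 54523 in control and 41578 to 44250.4 in HERVH shRNA samples.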

How the data were processed

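Linear probe intensities deposited by the authors, in the value table with 1 column per sample, were used. GenomeStudio is named, per the submitters' processing notes, without a version. No source used here gives the background subtraction, scaling or array model. Gene names came from the deposited probe table, another file, whose 47230 probe identifiers all matched. Its 12 columns of signals and detection p-values match no sample label and were not used. Intensities were background corrected (normexp, offset 50), quantile normalised and set on the log2 scale, and HERVH shRNA was compared with control shRNA with limma 3.58.1 in R 4.3.3 over all probes, with Benjamini-Hochberg adjustment and no filter. The fit was tested on simulated data. Tables were made with Python 3.11.15.

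The members and lists were chosen with earlier results of these data known. Simple keratins, called keratin probes, those above the olfactory receptor level, and the 5 with the largest change are named. Of the partner lists, up to 4 genes with the largest change above that level are named, and others as examples. With 3 arrays per group, their number limits the precision. Alternatives covered normalization, background correction, a filter, the variance model, array weights, a replicate block, averaging of probes and each sample left out.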

Additional observations from a re-analysis of the deposited data

How the results depend on the processing

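Over 14 alternatives to the fit, 10 keratin probes were called except with 1 sample left out (10 to 12), with probes averaged per gene (8 of 55 genes) and with dim probes left out (8 of 8 probes tested, beside 58.3% of the 20465 probes in that fit). The last fit kept probes by their mean over both groups, which a probe can pass through its higher group alone. Its 8 calls are therefore no separate support. The calls for KRT8, KRT19, KRT17, KRT18, KRT80, KRT75, KRT7 and KRT86 kept their direction and passed the test in every alternative that tested them. Averaging could alter the fold change of only KRT18 and KRT80 among these, since the others had 1 probe under that name. The KRTHB6 probe of KRT86, which was not called (log2 difference -0.04), was not averaged in. With probes averaged per gene, KRT80 gave 0.25 in place of 0.43 and KRT18 -0.74 in place of -0.999 and -0.48. KRT8 ranged from 0.56 to 0.70. KRT16 lost its call with its probes averaged (0.03), and KRT10 was called (adjusted p = 0.042) when only probes above the olfactory receptor level were tested. The second KRT20 probe, never called, gave 0.02 in the fit of all samples, -0.0085 without control replicate 3, and -0.016 averaged with the first. With 1 sample left out it ranged from -0.036 to 0.070. Of the keratin probes, 8 were above the 95th percentile of olfactory receptor probes, 5 above the 99th, and 4 above the 95th in each of the 6 samples (KRT8, KRT19, KRT10 and KRT17). A replicate block, pairing the numbers 1 to 3 of the titles, left 10 keratin calls and gave 12078 calls over all probes against 12041. Deviations of same-numbered samples correlated at 0.11, 0.0056 and 0.061 for replicates 1, 2 and 3. The highest correlations with another number were -0.0079, 0.050 and 0.0025, so the same number was higher for replicates 1 and 3 and lower for replicate 2. All were low, and the numbers were not taken as pairs. Dim signal limits most keratin probes.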

Other observations

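Names close to keratin but outside the naming rule gave further values. KRTCAP3, keratinocyte-associated protein 3, went from 437 ± 28.1 to 223 ± 4.83 and KRTDAP, a secreted protein of differentiating keratinocytes, from 95.6 ± 6.3 to 146 ± 9.25 (SD, n = 3 each), with log2 fold changes of -0.91 and 0.58 (limma adjusted p = 1.7e-10 and 6.6e-07). The keratin-associated KRTAP names, which encode matrix proteins of the hair shaft, had 91 probes for 76 names. Of these probes 3 were called, 1 higher and 2 lower, and 5 were above the olfactory receptor level. The share called was 3.30%, beside 25.5% of all probes. Of all probes not above that level, where 86 of the 91 lay, 4.45% were called. A probe under the old name KRTHA5, given by the gene table as KRT35, was dim and not called. A probe for KRT16P2, a copy of KRT16, went from 74.2 ± 3.83 to 109.98 ± 14.7 (SD, n = 3 each), a log2 fold change of 0.49 (limma adjusted p = 2.7e-05). Its second probe (0.11) and a KRT16P1 probe (0.06) were dim and not called. Of the 446 olfactory receptor probes themselves, 4 were called, and 23 lay above their own 95th percentile.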
